A study of Mus musculus with 4 samples.

Results

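TNF superfamily costimulators were followed through the immune cells of mouse skin and of a transplanted skin tumor. The 10 members were taken by name, with earlier results of these data known, out of 31053 genes in the count tables. They are the receptors Tnfrsf4 (OX40), Tnfrsf9 (4-1BB), Tnfrsf18 (GITR), Tnfrsf1b (TNFR2), Cd27 and Cd40, and the ligands Cd70, Cd40lg (CD40L), Tnfsf10 (TRAIL) and Tnfsf11 (RANKL). Single-cell RNA-seq (scRNA-seq) was performed on CD45+ DAPI- cells, that is live hematopoietic cells, sorted from enzyme-digested tissue. There were 2 libraries of control skin from C57/BL6 mice that received no tumor cells, and 2 libraries of skin tumors. The tumors grew for about 2 weeks from the 2323 cell line, injected under the flank skin of female and male mice of the same strain, aged 8 to 10 weeks. The line was derived from a grafted tumor of an engineered mouse with K14rtTA/tetOCre, in which Cre is driven in keratin 14-expressing epithelial cells. All tumors thus come from 1 line, transplanted into hosts whose own immune cells were measured, and the control mice were not engineered. The samples are separate skins and tumors, 1 library each, so p-values of tumor against control skin measure the spread between 2 and 2 libraries. Where 2 cell types are compared within libraries, p-values measure the spread of their difference over the 4 libraries.

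Members of this receptor family are switched on by trimeric ligands on neighboring cells and pass the signal through TRAF adaptors to NF-kB. OX40, 4-1BB, GITR and CD27 are costimulators of T cells, TNFR2 is known for its place on regulatory T cells (Tregs), and CD40 on antigen-presenting cells receives help from CD40L on T cells. CD70 is the ligand of CD27, TRAIL binds a death receptor, and RANKL acts on RANK, which dendritic cells carry.

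By GENCODE vM21 (build GRCm38), 4 of the 10 members lie on chromosome 4. Tnfrsf4 (chr4:156013843-156016612, + strand) and Tnfrsf18 (chr4:156026164-156028895, + strand) are neighbors with 9551 bases between them, Tnfrsf9 is at chr4:150914562-150946102 (+ strand) and Tnfrsf1b at chr4:145213463-145246870 (- strand). The others are Cd27 (chr6:125232622-125237010, - strand), Cd70 (chr17:57145997-57149777, - strand), Cd40 (chr2:165055627-165072948, + strand), Cd40lg (chrX:57212143-57224042, + strand), Tnfsf10 (chr3:27317028-27342427, + strand) and Tnfsf11 (chr14:78277445-78308043, - strand). Tnfrsf9, Tnfrsf18 and Cd27 overlap an annotated gene on the opposite strand.

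The sequences before the start sites are shown for the 4 receptors of chromosome 4, which were all higher in Tregs than in other CD4 T cells. They are the 250 bases before each RefSeq start (GRCm38.p6), cut where an annotated exon begins, and Tnfrsf9 has 2 starts, both inside the gene as GENCODE draws it. Capitals mark a match to TTCNNNGAA, the STAT pattern.
Tnfrsf4, chr4:156013445-156013694, + strand: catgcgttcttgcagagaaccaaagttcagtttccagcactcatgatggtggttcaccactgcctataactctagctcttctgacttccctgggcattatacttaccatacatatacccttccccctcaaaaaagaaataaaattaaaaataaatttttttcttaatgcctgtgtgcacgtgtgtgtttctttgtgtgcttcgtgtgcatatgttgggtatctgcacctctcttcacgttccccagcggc
Tnfrsf9, first start, chr4:150919905-150920154, + strand: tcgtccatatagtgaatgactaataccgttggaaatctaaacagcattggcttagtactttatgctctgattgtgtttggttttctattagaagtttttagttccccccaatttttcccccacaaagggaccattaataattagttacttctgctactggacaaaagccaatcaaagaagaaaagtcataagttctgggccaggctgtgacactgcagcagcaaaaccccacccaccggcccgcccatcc
Tnfrsf9, second start, chr4:150927749-150927917, + strand: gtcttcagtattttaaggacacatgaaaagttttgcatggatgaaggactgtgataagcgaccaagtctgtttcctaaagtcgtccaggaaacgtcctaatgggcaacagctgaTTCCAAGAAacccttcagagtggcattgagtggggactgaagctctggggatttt
Tnfrsf18, chr4:156026072-156026163, + strand: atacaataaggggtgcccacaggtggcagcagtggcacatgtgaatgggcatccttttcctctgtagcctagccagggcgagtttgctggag
Tnfrsf1b, chr4:145246871-145247120, - strand: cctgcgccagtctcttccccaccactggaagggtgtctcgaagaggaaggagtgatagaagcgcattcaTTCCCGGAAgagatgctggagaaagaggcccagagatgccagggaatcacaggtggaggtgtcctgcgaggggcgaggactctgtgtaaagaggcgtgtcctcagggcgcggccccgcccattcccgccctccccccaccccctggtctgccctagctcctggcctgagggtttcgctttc

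Both strands of the uncut 250-base windows were searched for TTCNNNGAA, for the AP-1 pattern TGANTCA and for the kB consensus, which 7.02%, 6.75% and 3.90% of all 32851 promoter windows hold. The windows of Tnfrsf4 and of the first Tnfrsf9 start held none of them, as did those of Cd27, Tnfsf10 and Tnfsf11. The window of the second Tnfrsf9 start held all 3 patterns, with the AP-1 match and 2 overlapping kB matches in the exon part that is not shown. Tnfrsf18 and Tnfrsf1b each held 1 STAT match, that of Tnfrsf18 in its exon part. A match is a run of letters and no shown site, and the windows cover 7 of the 10 members.

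After filtering, 12848 cells remained (1994 to 4784 per library, with a median of 10610 to 13361.5 UMIs per cell), and 1 to 7 cell barcodes were shared by any pair of libraries. A UMI is a molecular tag that counts 1 captured RNA molecule. Cells were assigned to 15 types by UMIs of fixed marker genes, none of which is a member, and 7598 cells (59.1%) met exactly 1 gate. In 13 types every library had at least 10 cells, with as few as 11 dendritic epidermal T cells (DETC) in tumor 1 and 11 cDC1, a conventional dendritic cell type, in tumor 2. Dermal gamma delta T cells (30, 42, 7 and 0 cells in control 1, control 2, tumor 1 and tumor 2, the order of every series of 4 values here) and Langerhans cells (LC; 299, 261, 2 and 5) could not be tested. UMIs were summed per library and type and are given per 10,000 UMIs of that sum, abbreviated as UMIs per 10,000.

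Checks of the gates by genes outside the members differed between groups in several types. In the ILC2 gate (type 2 innate lymphoid cells), the transcription factor gene Hlf was at 13.4, 14.1, 1.31 and 0.90 UMIs per 10,000 and Ikzf2, a gene high in Tregs, at 7.27, 9.72, 59.1 and 46.2. Of the gate's own marker list, the type 2 cytokine gene Il5 was at 2.28, 2.18, 0.27 and 0 and Gata3 at 5.76, 6.95, 3.32 and 2.13. Il1rl1 of the same list went the other way, at 0.584, 0.983, 3.66 and 2.79. In tumors the label thus goes against part of its markers, and the cells are called ILC2-gated. In the mature dendritic cell (mature DC) gate the summed Langerhans cell markers were at 39.4, 42.8, 0.918 and 1.14, and Cd207, which encodes langerin, was at 0 in both tumors. In the CD4 T gate, which bars Foxp3, Ikzf2 was at 0.71, 1.03, 9.22 and 4.48. In the CD8 T gate, Cd8a was at 4.66, 4.17, 3.77 and 3.21, and Cd4 and Foxp3 at 0 as the gate requires. The summed ILC2 markers there were at 16.2, 20.01, 3.90 and 8.81. Ikzf2 was higher in tumors in the CD8 T gate too, at 4.13, 4.56, 10.4 and 9.13, and in the DETC gate, at 3.95, 3.74, 6.33 and 7.83. In the Treg gate it was lower in tumors, at 50.6, 49.7, 38.2 and 40.6. The Treg gate held Foxp3 at 5.62, 5.30, 2.73 and 2.96. The part of these differences in the results below was not tested, except where narrowed gates are given.

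OX40, which sustains activated T cells, was highest in Tregs. Tnfrsf4 stood at 7.46 ± 1.11 UMIs per 10,000 (SD, n = 4 libraries) in Tregs, 3.03 ± 0.651 in CD4 T cells, 0.932 ± 0.826 in ILC2-gated cells and 0.606 ± 0.496 in CD8 T cells. The first 2 steps of this order exceeded the larger SD of the neighbors, and the step from ILC2-gated to CD8 T cells did not. Here and below, an SD over 4 libraries takes control skin and skin tumor together, so it also holds the difference between groups. Outside lymphocytes, mature DC had the next level, 0.346 ± 0.251, and macrophages were at 0.0123 ± 0.0145.

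Tnfrsf9, whose product costimulates activated T and NK cells, was also highest in Tregs, at 16.0 ± 5.86. ILC2-gated cells followed at 6.92 ± 3.09, DETC at 4.47 ± 2.12 and CD8 T cells at 4.42 ± 1.09, and these 3 were not separated by more than their spread. The lead of Tregs did not hold in each library. In tumor 1 Tregs were at 9.53 and ILC2-gated cells at 9.60, and in tumor 2 they were at 13.9 and 9.59. LC of control skin had 1.04 and 1.03, and mature DC 1.97 ± 1.63.

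GITR, a receptor that Tregs carry at rest, gave Tnfrsf18 at 5.01 ± 0.658 in Tregs, 2.87 ± 0.463 in CD4 T cells, 1.40 ± 0.382 in CD8 T cells and 1.35 ± 0.491 in ILC2-gated cells. Tregs and CD4 T cells were each separated from the next type by more than the SD, the others were not. No Tnfrsf18 UMI was found in mast cells.

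TNFR2, a receptor of TNF and lymphotoxin alpha, was found in every type. Tnfrsf1b was at 5.90 ± 2.27 in Tregs, 5.70 ± 2.26 in DETC, 4.98 ± 0.595 in neutrophils and 4.68 ± 1.07 in ILC2-gated cells, with no gap above the spread. Its lowest mean over 4 libraries was that of cDC1, at 0.341 ± 0.151.

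Cd27, whose product costimulates T cells on meeting CD70, was at 1.87 ± 0.459 in Tregs, 1.33 ± 0.411 in CD8 T cells, 1.12 ± 0.322 in ILC2-gated cells and 0.726 ± 0.359 in NK cells. The gap from Tregs to CD8 T cells exceeded the larger SD of the pair, and that from CD8 T to ILC2-gated cells did not. CD4 T cells without Foxp3 had 0.462 ± 0.110.

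Cd40 was a gene of antigen-presenting cells. It was at 1.97 ± 1.29 in mature DC, 1.33 and 1.24 in LC of the 2 control skins, 0.789 ± 0.169 in macrophages and 0.514 ± 0.102 in monocyte-like cells. In CD4 T, CD8 T and Treg cells its mean lay between 0.0326 and 0.0346. In control skin alone, mature DC held Cd40 at 0.987 and 1.20, below both LC values.

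Among the ligands, Cd40lg and Tnfsf11 were led by CD4 T cells beyond the spread. Cd40lg was at 1.87 ± 0.757 in CD4 T cells and 0.483 ± 0.529 in CD8 T cells, and no UMI of it was found in NK cells, mature DC, monocyte-like cells or neutrophils. Tnfsf11 was at 2.97 ± 1.26 in CD4 T cells and 0.543 ± 0.469 in ILC2-gated cells. Cd70 was sparse, at 0.237 ± 0.222 in CD4 T cells and 0.148 ± 0.0991 in mature DC, which did not differ beyond the spread. Tnfsf10 had a flat order over the 4 libraries, with 0.834 ± 0.301 in CD8 T cells, 0.774 ± 0.177 in DETC, 0.712 ± 0.112 in CD4 T cells and 0.633 ± 0.603 in NK cells, and none was found in neutrophils. The order of the means differed between groups, but the NK lead in control skin was within the spread. There, NK cells had a Tnfsf10 mean of 1.09 ± 0.500 (SD, n = 2 libraries) and CD8 T cells 1.05 ± 0.0901. The NK values rest on 10 and 21 UMIs of 14 and 12 cells, and in control 1 NK cells (0.735) were below CD8 T cells (1.11). In skin tumor NK cells were at 0.177, below CD8 T cells (0.622), CD4 T cells (0.779) and the DETC gate (0.819).

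To ask which members set Tregs apart from other CD4 T cells, both types were compared within the 4 libraries. Of 9 members tested, 8 differed (quasi-likelihood test of edgeR, with p-values adjusted by Benjamini-Hochberg over all genes), against 5.32% of all genes tested. The 5 T cell receptors were higher in Tregs in 4 of 4 libraries. Tnfrsf9 was higher by a log2 of 2.33 (SE 0.264, adjusted p = 0.000823), Cd27 by 1.97 (SE 0.250, adjusted p = 0.00143) and Tnfrsf4 by 1.27 (SE 0.206, adjusted p = 0.00466). These 3 receptors passed in every alternative that could test them.

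Tnfrsf18, higher by a log2 of 0.78 (SE 0.167, adjusted p = 0.0206), and Tnfrsf1b, higher by 0.65 (SE 0.156, adjusted p = 0.0363), were weaker. Leaving out any 1 of the 4 libraries raised the adjusted p to between 0.0609 and 0.0965 for Tnfrsf18 and to between 0.0758 and 0.164 for Tnfrsf1b. Doubled marker minima gave 0.0748 and 0.188.

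The ligands went the other way. Tnfsf11 was at 0.201 ± 0.229 in Tregs against 2.97 ± 1.26 in CD4 T cells, a log2 of -4.05 (SE 0.339, adjusted p = 0.000181), and it was lower in 4 of 4 libraries and in every alternative run. Cd40lg was at 0.211 ± 0.120 against 1.87 ± 0.757 (log2 -3.11, SE 0.314, adjusted p = 0.000404). Cd70 was at 0.00820 ± 0.0164 against 0.237 ± 0.222 (log2 -4.15, SE 0.767, adjusted p = 0.0119), with no UMI in either type of control 2, and DESeq2 gave it an adjusted p of 0.0574. Without the CD4 T cells that held an Ikzf2 UMI, which left 22 to 55 cells per library, the adjusted p of Cd70 was 0.118 and that of Tnfrsf1b 0.0650. Tnfsf10 did not pass the test (0.580 ± 0.152 against 0.712 ± 0.112, log2 -0.46, adjusted p = 0.478). Cd40 was left out by the filter on low counts.

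**Figure D1:**
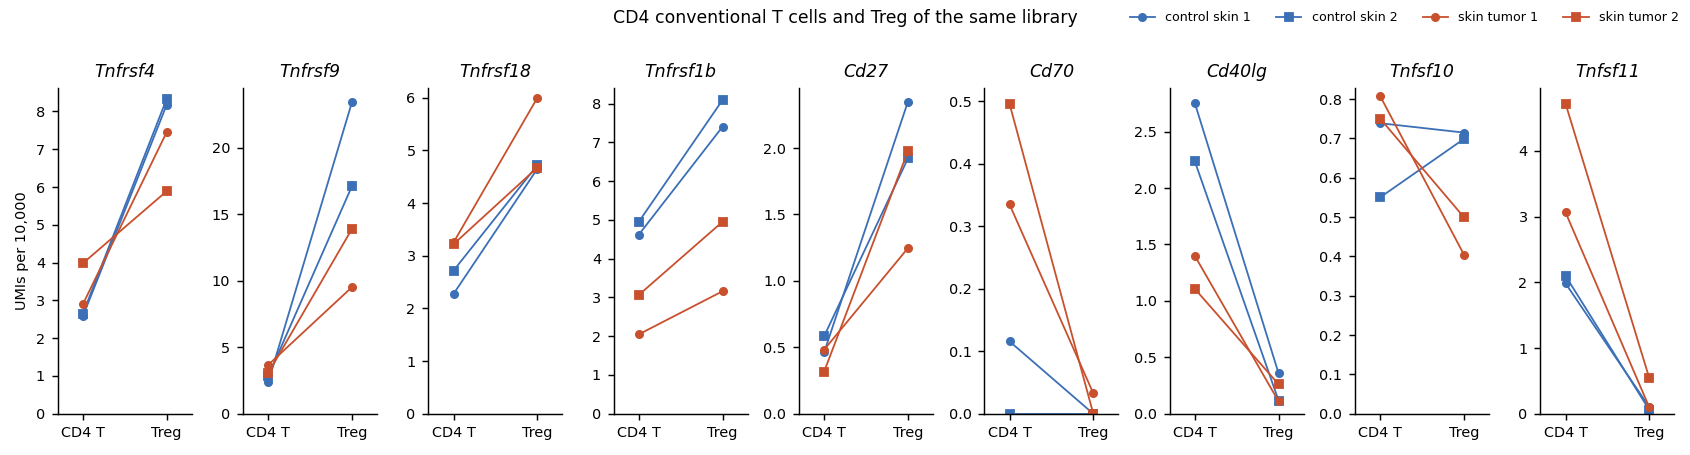
UMIs per 10,000 of 9 members in CD4 T cells and Tregs, with a line joining the 2 types of each library. The lines climb to Tregs for Tnfrsf4, Tnfrsf9, Tnfrsf18, Tnfrsf1b and Cd27 in 4 of 4 libraries, and drop for Cd40lg and Tnfsf11.

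Tnfrsf4, Tnfrsf9 and Tnfrsf18 each had a UMI in most Tregs, in a mean of 90.6, 97.4 and 88.2% of cells over the 4 libraries. High joint shares follow from such single shares, so the joint shares below are no separate sign that the 3 go together. A UMI of each was present in 82.6, 77.3, 78.8 and 79.6% of Tregs, against 29.7, 32.3, 40.0 and 50.6% of CD4 T cells. The share in CD8 T cells was 3.85, 6.25, 30.2 and 24.4%. Macrophages held all 3 in 0 to 0.718% of cells, at a median of 15262 to 19738 UMIs per cell against 7025 to 8042 in Tregs. A Tnfrsf9 UMI was found in 13.5% of macrophages of all libraries together, at a mean of 0.221 ± 0.116 UMIs per 10,000. Genes of another type can reach such shares: Cd207 had a UMI in 25.7 and 19.5% of DETC in control skin. Whether macrophages made the Tnfrsf9 RNA was not tested. With each cell thinned to 1000 UMIs the Treg shares were 26.1, 9.09, 12.9 and 10.2% and the CD4 T shares 0, 0, 4.17 and 3.61%, so the high shares need the full depth. Tregs stood above CD4 T cells at both depths in each library.

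Mature DC, which have left the antigen-sampling state, were compared in the same way with cDC2, the conventional dendritic cells that prime CD4 T cells. Of 6 members tested, 5 were higher in mature DC, against 9.59% of all genes tested. Tnfrsf4 was at 0.346 ± 0.251 in mature DC and 0.0112 ± 0.00771 in cDC2 (log2 4.89, SE 0.712, adjusted p = 0.00452). Cd70 was at 0.148 ± 0.0991 and 0.00405 ± 0.00499 (log2 4.79, SE 0.857, adjusted p = 0.0144), and Tnfrsf9 at 1.97 ± 1.63 and 0.223 ± 0.304 (log2 3.48, SE 0.555, adjusted p = 0.00648). Receptors known from T cells thus had a measured level in this gate.

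Tnfrsf18 was higher in mature DC by a log2 of 2.18 (SE 0.435, adjusted p = 0.0179) and Cd40 by 2.03 (SE 0.361, adjusted p = 0.0104). Tnfrsf1b was at 2.58 against 1.68 and did not pass the test (log2 0.74, adjusted p = 0.134). The control sums of this gate carried LC markers, and control 1 also ILC2 genes (Hlf at 2.88 and Gata3 at 1.28 UMIs per 10,000). Without the mature DC that held over 10 LC marker UMIs, Cd40 was higher by 1.75 with an adjusted p of 0.0583. Without tumor 1 the adjusted p was 0.0628 for Tnfrsf4 and 0.103 for Cd70, and without tumor 2 it was 0.0506 for Cd70 and 0.0630 for Tnfrsf18. With doubled marker minima Tnfrsf18 had a log2 of 1.17 and an adjusted p of 0.177.

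Skin tumor was then compared with control skin inside each type. Of 130 pairs of a member and a type, 70 had enough UMIs to be tested and 8 passed the test (11.4%), in 4 types, against 4.97% of the 88637 gene tests in the same fits. The changes were in CD8 T cells (4 of 8 members tested, where 10.7% of genes passed), CD4 T cells (1 of 9, where 8.24% passed), ILC2-gated cells (2 of 9, where 15.5% passed) and mature DC (1 of 6, where 4.14% passed). The shares in CD4 T and ILC2-gated cells were close to those of all genes. Where both tumors are said below to lie on 1 side of both control skins, the share of all genes doing so is not given. Such a statement describes the values and adds nothing to the test. The number of pairs that passed was 4 without control 1, 14 without tumor 1, 21 without tumor 2, 22 without the filter on low counts and 2 on cells thinned to 1000 UMIs.

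In CD8 T cells, Cd40lg fell most. It was at 1.10, 0.742, 0.0313 and 0.0538 UMIs per 10,000, from 158, 40, 14 and 3 UMIs, so both tumors lay far below both control skins (log2 -4.88, SE 0.414, adjusted p = 0.000133). The share of CD8 T cells with a Cd40lg UMI was 38.5, 29.2, 2.06 and 2.22%, while it was 0 of 171 NK cells, which allows a share of up to 1.75%. This call was kept in all 11 alternatives that could test it.

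Tnfrsf1b fell in CD8 T cells, from 5.21 and 6.01 to 2.16 and 3.09 (log2 -1.26, SE 0.248, adjusted p = 0.00899), and the groups did not overlap. Without control 1 its adjusted p was 0.0720, without control 2 it was 0.0607, and thinned sums gave a log2 of -0.77 and 0.148. Tnfsf11 fell from 0.314 and 0.278 to 0.0581 and 0.126 (log2 -2.15, SE 0.485, adjusted p = 0.0172), with an adjusted p of 0.427 without control 1, 0.151 without tumor 1 and 0.0599 by DESeq2. Tnfrsf4 rose from 0.0768 and 0.352 to 1.21 and 0.790 (log2 2.41, SE 0.512, adjusted p = 0.0128), and without control 1 the log2 was 1.40 and the adjusted p 0.135. The co-detection of Tnfrsf4, Tnfrsf9 and Tnfrsf18 given above was higher in CD8 T cells of both tumors than of both control skins. Such cells must hold a Tnfrsf4 UMI, so that share moves with Tnfrsf4 and is no separate support for its rise.

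The other members of CD8 T cells did not pass. Tnfrsf9 was at 3.10, 4.75, 4.11 and 5.71 (log2 0.18, adjusted p = 0.732), and its groups overlapped. Tnfsf10 was at 1.11, 0.983, 0.418 and 0.825 (log2 -1.04, adjusted p = 0.0686) and Cd27 at 1.95, 1.13, 1.16 and 1.09 (log2 -0.63, adjusted p = 0.177). Beside these results, the summed ILC2 markers in this gate were lower in tumors. Of that list, Gata3 was at 1.39, 1.74, 0.634 and 0.628 UMIs per 10,000, and Il5 at 0.0908, 0, 0.00223 and 0. Eomes, a gene of the NK gate's marker list, was higher in tumors (0.133, 0.167, 1.21 and 0.664). Ncr1 of the same list was at 0.0140, 0.0185, 0 and 0.0538. The part of these genes was not tested.

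In CD4 T cells Cd40lg fell as well, from 2.75 and 2.24 to 1.40 and 1.11 (log2 -1.06, SE 0.242, adjusted p = 0.0328). The call was lost in 6 of 13 alternatives: without control 1 (log2 -0.84, adjusted p = 0.205), without tumor 2 (log2 -0.95, adjusted p = 0.0615), by DESeq2 (adjusted p = 0.0719), with doubled marker minima (adjusted p = 0.0756), on thinned cells (adjusted p = 0.0666) and without the CD4 T cells that held an Ikzf2 UMI (log2 -0.89, adjusted p = 0.0610). Tnfrsf1b was at 4.62, 4.95, 2.05 and 3.07 with an adjusted p of 0.0538 (log2 -0.95), and in the narrowed gate at a log2 of -0.92 it passed with 0.0339. Tnfsf11 was at 1.98, 2.10, 3.06 and 4.72 (log2 0.88, adjusted p = 0.0784) and Cd70 at 0.116, 0, 0.335 and 0.496 (log2 2.32, adjusted p = 0.0737). Neither group overlapped the other for these 2 ligands, and neither passed. Tnfrsf4, Tnfrsf9 and Tnfrsf18 had log2 differences of 0.34 to 0.35 and did not pass.

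In Tregs, whose numbers per library were 23, 22, 85 and 49 cells, none of 6 members passed (edgeR; 0 by DESeq2), where 3.56% of genes did. At an unadjusted p under 0.05 there were 2, against 16.7% of genes. Tnfrsf9 was at 23.4, 17.1, 9.53 and 13.9 UMIs per 10,000 (log2 -0.79, adjusted p = 0.262) and Tnfrsf1b at 7.40, 8.09, 3.16 and 4.95 (log2 -0.94, adjusted p = 0.139). Both tumors were below both control skins for each of them. Without tumor 2 the 2 receptors passed, at a log2 of -1.03 (adjusted p = 0.0126) and -1.24 (adjusted p = 0.00461).

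The other 4 members tested in Tregs did not pass either. Tnfrsf4 was at 8.17, 8.33, 7.45 and 5.89 (log2 -0.30, adjusted p = 0.676), Tnfrsf18 at 4.65, 4.72, 5.99 and 4.67 (log2 0.19, adjusted p = 0.80) and Cd27 at 2.35, 1.92, 1.25 and 1.98 (log2 -0.43, adjusted p = 0.570). Tnfsf10 was at 0.715, 0.699, 0.405 and 0.500 (log2 -0.66, adjusted p = 0.465). Both tumors were below both control skins for Tnfrsf4 and Tnfsf10, and the groups overlapped for Tnfrsf18 and Cd27. A model of both types tested whether the tumor effect in Tregs differed from that in CD4 T cells. It called 0 of 9 members by edgeR, against 1.6% of all genes, and 0 by DESeq2, with 1 at an unadjusted p under 0.05, against 12.3% of all genes. The nearest was Tnfrsf9, with a difference of -1.19 (SE 0.323, adjusted p = 0.0722).

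Tnfrsf9 changed in opposite directions in the sums of the ILC2 and mature DC gates. In ILC2-gated cells it was at 4.18, 4.31, 9.60 and 9.59 (log2 1.00, SE 0.213, adjusted p = 0.0198), and in mature DC at 3.40, 3.35, 0.395 and 0.740 (log2 -2.71, SE 0.351, adjusted p = 0.0134). Neither call was kept once the gates were narrowed. Without the ILC2-gated cells that held a UMI of Trac, Cd4 or Foxp3, Tnfrsf9 was at 3.74, 3.45, 6.89 and 5.62 (log2 0.62, adjusted p = 0.225). Without the LC-marked mature DC it was at 1.63, 1.59, 0.383 and 0.833 (log2 -1.57, adjusted p = 0.230). The narrowed control 1 sum, of 15 cells, still held ILC2 genes (Hlf at 6.52, Gata3 at 2.91 and Il5 at 2.69 UMIs per 10,000, each at 0 in control 2), and their part was not tested. The directions were kept and the sizes shrank. The ILC2-gated call was also lost without control 1 (adjusted p = 0.237) or control 2 (adjusted p = 0.188).

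Tnfrsf4 rose in ILC2-gated cells from 0.363 and 0.300 to 2.08 and 0.984 (log2 2.03, SE 0.365, adjusted p = 0.0116). In the narrowed gate it was at 0.205, 0.192, 0.721 and 0.433 (log2 1.43, adjusted p = 0.137), with Ikzf2 still at 6.03, 5.94, 43.8 and 40.5. The higher Ikzf2 of tumors thus remained in the narrowed ILC2 gate. As given above, Ikzf2 was also higher in tumors in the CD4 T, CD8 T and DETC gates, so such a rise is not particular to this gate. Cd40 in mature DC was at 0.987, 1.20, 1.89 and 3.82 (log2 1.28, adjusted p = 0.119), and at 0.709, 0.563, 1.89 and 4.14 in the narrowed gate (log2 2.12, adjusted p = 0.162). Tumors were above control skins in both gates, and neither passed.

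**Figure D2:**
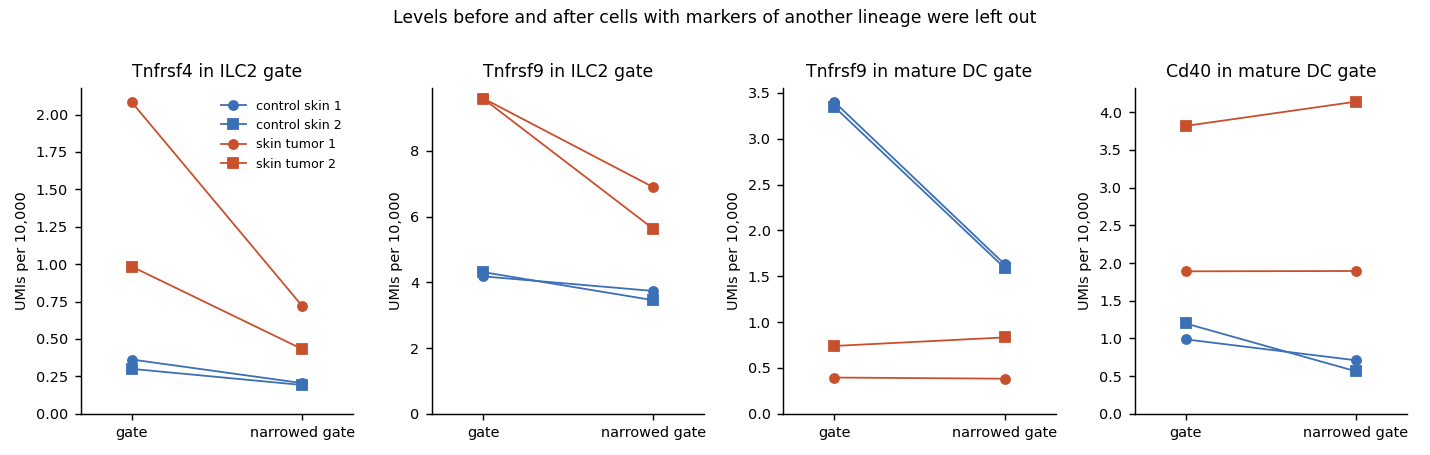
UMIs per 10,000 of Tnfrsf4 and Tnfrsf9 in the ILC2 gate and of Tnfrsf9 and Cd40 in the mature DC gate, 1 point per library, before and after the gates were narrowed. Narrowing lowers Tnfrsf9 in the control mature DC from 3.40 and 3.35 to 1.63 and 1.59.

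No member passed in the other 9 types. In NK cells Tnfsf10, the TRAIL gene, was at 0.735, 1.44, 0.102 and 0.252 (log2 -2.72, adjusted p = 0.0879 by edgeR and 0.0484 by DESeq2). NK cells had 0 of 5 members called by edgeR (0.616% of genes), 2 at an unadjusted p under 0.05 (13.9% of genes) and 1 by DESeq2 (0.973% of genes). In the DETC gate, with 11 and 15 cells in tumors, the counts were 0 of 7 (0% of genes), 1 (8.2% of genes) and 1 (3.56% of genes). The DESeq2 call was Cd27 (0.162, 0.160, 0.745 and 0.341, adjusted p = 0.596 by edgeR and 0.0290 by DESeq2). These Cd27 values rest on 95, 118, 8 and 5 UMIs. In the DETC gate of tumor 1, Eomes and Ncr1, both of the NK gate's marker list, were at 1.77 and 0.745, and their part was not tested.

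In macrophages Cd40, the receptor of T cell help, was at 0.764, 0.570, 0.974 and 0.848 (log2 0.27, adjusted p = 0.680), and in monocyte-like cells at 0.545, 0.364, 0.590 and 0.557 (log2 0.35, adjusted p = 0.744). Both tumors were above both control skins in these 2 types, and neither passed. In cDC1 and cDC2 the Cd40 groups overlapped (log2 -0.73 and -0.04). Macrophages had Tnfrsf1b at 2.68, 2.71, 2.06 and 2.41 (log2 -0.47, adjusted p = 0.403). None of 6 members of macrophages passed by edgeR (0.531% of genes), by DESeq2 (2.99% of genes) or at an unadjusted p under 0.05 (12.8% of genes). Monocyte-like cells had 0 of 5 called by edgeR (0.375% of genes) and by DESeq2 (1.91% of genes) and 3 at an unadjusted p under 0.05 (11.1% of genes), among them Tnfrsf18 (0.245, 0.191, 0.0317 and 0.0366, log2 -2.68, adjusted p = 0.0999). By edgeR, cDC1 had 0 of 3 called (5.32% of genes), cDC2 0 of 4 (10.2%), neutrophils 0 of 1 (0%) and mast cells 0 of 1 (2.12%), and DESeq2 called no member there either. At an unadjusted p under 0.05 there were 1 in cDC1 (24.9% of genes), 3 in cDC2 (28.6%), 0 in neutrophils (6.15%) and 0 in mast cells (17.7%).

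Tnfrsf1b had the same sign in nearly all types. Its log2 difference was below 0 in 12 of 13 types with a median of -0.77, it was at an unadjusted p under 0.05 in 8, and it passed in CD8 T cells alone. Of all genes, 6.15 to 30.8% were under that p in a type, and the 13 types come from the same 4 libraries, so they are not separate tests of the tumor. The exception was mast cells at 0.18 (-0.11 without TMM factors, a scaling that moved the median of all genes there by -0.306).

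Over all immune cells together, the level of a gene moves with the cell types present as well as with the level in them. From that sum alone, fewer cells of a type and less RNA per cell cannot be told apart. Of the 10 members, 4 passed, against 28.3% of all genes, with 5 at an unadjusted p under 0.05, against 44.2%. Tnfsf10 fell from 0.438 and 0.347 to 0.144 and 0.124 UMIs per 10,000 (log2 -1.68, SE 0.168, adjusted p = 0.00648), and Tnfrsf1b from 4.38 and 4.27 to 2.08 and 2.64 (log2 -1.01, SE 0.173, adjusted p = 0.0185). Tnfrsf9 fell from 3.19 and 2.74 to 0.943 and 1.59 (log2 -1.36, SE 0.287, adjusted p = 0.0286). Cd40 rose from 0.483 and 0.476 to 0.832 and 0.689 (log2 0.52, SE 0.134, adjusted p = 0.0450). The groups did not overlap for these 4 members, and the share of all genes with that pattern is not given here. Without control 1 the adjusted p was 0.0871 for Tnfrsf9, 0.0663 for Tnfrsf1b and 0.247 for Cd40, and Tnfrsf9 gave 0.0691 on thinned cells. Cd40 failed in 6 of 12 alternatives, the others being without control 2 (0.192), without tumor 1 (0.104), with the replicate block (0.0789), without the filter on low counts (0.0516) and on thinned cells (0.0622). Cd40lg did not pass by edgeR (log2 -1.81, adjusted p = 0.0565) and did by DESeq2 (0.00141).

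The UMIs of a member came from different cells in the 2 tissues. DETC, of which control skin had 506 and 604 and tumors 11 and 15, held 25.1 and 36.5% of all Tnfrsf9 UMIs in control skin and 0.211 and 1.66% in tumors. In tumors, Tregs held 13.2 and 13.4% and CD8 T cells 27.8 and 6.67% of them. Macrophages, which numbered 52 and 186 in control skin and 1644 and 557 in tumors, held 3.83 and 8.93% of Cd40 UMIs in control skin and 55.7 and 48.1% in tumors, and LC held 37.4 and 28.2% in control skin. Macrophages also held 47.2 and 35.7% of Tnfrsf1b UMIs in tumors. CD4 T cells held 45.1 and 36.7% of Cd40lg and 54.1 and 39.9% of Tnfsf11 UMIs in tumors. Between 23.1 and 69.0% of a member's UMIs were in cells that met no gate.

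**Figure D3:**
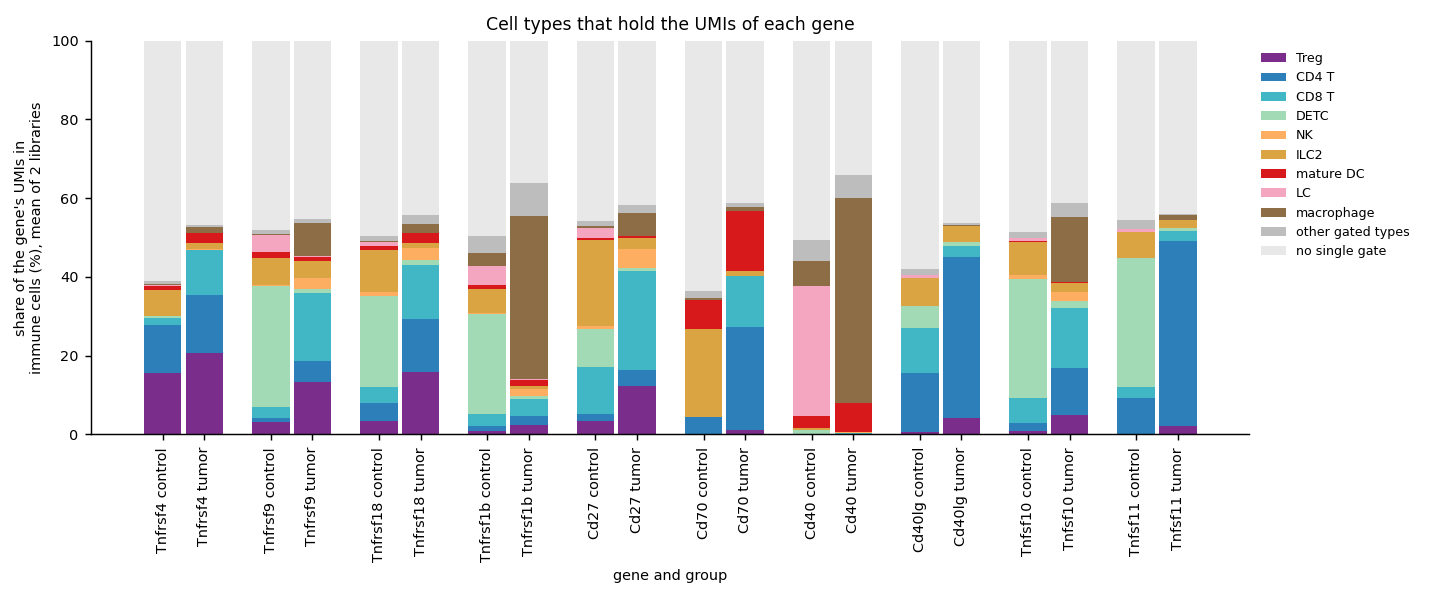
Share of each member's UMIs (percent) held by each cell type in control skin and skin tumor, as the mean of 2 libraries, with cells that met no gate as a class of their own. The DETC share of Tnfrsf9 is large in control skin only, and the macrophage share of Cd40 and Tnfrsf1b is large in tumors.

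Binding partners of the members were read from the same fits. Tnfsf4, the OX40 ligand gene, was at 0 UMIs in Tregs of all libraries and at 0.539 ± 0.451 UMIs per 10,000 in CD4 T cells, and it rose in CD8 T cells of tumors (0, 0.130, 0.576 and 0.502, log2 3.62, adjusted p = 0.0153 by edgeR and 0.670 by DESeq2). The 4-1BB ligand gene Tnfsf9 and Tnf were lower in Tregs than in CD4 T cells by log2 values of -1.71 (adjusted p = 0.0196 by edgeR and 0.0728 by DESeq2) and -2.15 (adjusted p = 0.00515), while Tnfrsf10b, the TRAIL receptor gene, was higher by 1.76 (adjusted p = 0.0228). Tnf fell in CD8 T cells of tumors (0.587, 0.630, 0.348 and 0.269, log2 -1.06, adjusted p = 0.0420 by edgeR and 0.181 by DESeq2).

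Lta, another ligand of TNFR2, rose in CD4 T cells of tumors (0.0724, 0.0688, 0.690 and 0.649, log2 3.14, adjusted p = 0.00436). Tnfrsf11a, the RANK gene, was at 1.91 ± 0.190 in mature DC and 0.466 ± 0.189 in cDC2 (log2 2.16, adjusted p = 0.00254), and it fell in ILC2-gated cells of tumors (0.692, 0.792, 0.154 and 0.246, log2 -2.06, adjusted p = 0.0150). The genes of CD27 and of its ligand were led by different types, Cd27 by Tregs and Cd70 by CD4 T cells and mature DC.

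The rest of the superfamily, its adaptors and NF-kB genes formed a list of 58 genes, chosen with earlier results of these data known. A share of the list above that of all genes is thus no separate support. Between tumor and control skin, 5 rose and 3 fell of 33 tested in CD4 T cells (24.2%, against 8.24% of all genes), 2 and 6 of 33 in CD8 T cells (24.2% against 10.7%), 4 and 5 of 37 in ILC2-gated cells (24.3% against 15.5%), and 0 and 0 of 26 in Tregs (0% against 3.56%). The median log2 difference of the list was 0.28 in CD4 T cells against 0.05 over all genes tested, and -0.53 in CD8 T cells against 0.06. In Tregs it was -0.30 against 0.02, with no gene past the test. In the other types, 6 of 36 tested passed in cDC2 (16.7% against 10.2%), 2 of 30 in mature DC (6.67% against 4.14%), 2 of 29 in cDC1 (6.90% against 5.32%), 1 of 29 in NK cells (3.45% against 0.616%) and none in DETC, macrophages, monocyte-like cells, neutrophils and mast cells.

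Traf3, an adaptor that restrains the alternative NF-kB pathway, rose in CD4 T cells (1.69, 2.13, 3.93 and 4.69 UMIs per 10,000, log2 1.14, adjusted p = 0.0202), CD8 T cells (log2 0.77, adjusted p = 0.0480 by edgeR and 0.160 by DESeq2), ILC2-gated cells (log2 1.29, adjusted p = 0.00967) and mature DC (log2 1.31, adjusted p = 0.0455). In Tregs Traf3 was at 11.3, 10.1, 4.71 and 6.11 (log2 -0.99, adjusted p = 0.106). Map3k14, which encodes the NIK kinase of the same pathway, fell in CD4 T cells (3.52, 3.61, 1.52 and 1.41, log2 -1.33, adjusted p = 0.00785), CD8 T cells (log2 -1.55, adjusted p = 0.00242) and ILC2-gated cells (log2 -1.21, adjusted p = 0.0111). Bcl2a1b and Bcl2a1d, survival genes, fell in these 3 types too, Bcl2a1d also fell in NK cells (log2 -2.01, adjusted p = 0.0493) and Bcl2a1b rose in cDC1 (log2 3.99, adjusted p = 0.00362). They are near-identical copies whose UMIs the mapping may split. In the test of the difference between Tregs and CD4 T cells Traf3 was among the 3 list genes with a lower tumor effect in Tregs. Against cDC2, mature DC had 12 of 38 list genes higher (31.6%, against 9.59% of all genes in either direction) and 0 lower, among them Traf1, Relb, Nfkb2 and Birc2.

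The genes with the pattern most like each member were ranked by Pearson's r of log2 levels over 52 sums (13 types in 4 libraries, which share libraries and depth) among 13549 genes. Slamf1 (r = 0.881) and Cd5 (0.869) were nearest to Tnfrsf4, Zbtb1 (0.897) and Vgll4 (0.889) to Tnfrsf9, Kmt2a (0.915) and Nfatc3 (0.908) to Tnfrsf18, and Ikzf3 (0.913) was among the 3 nearest to Cd27. Cxcl16 (0.921) and Ctsh (0.903) were nearest to Cd40, Nsg2 (0.877) and Ubash3a (0.854) to Cd40lg, Themis (0.824) to Tnfsf11, Abcb1a (0.903) to Tnfsf10, Rab8b (0.848) to Tnfrsf1b and Cx3cl1 (0.790) to Cd70. None of these nearest genes was another member. Over the same sums, pairs of members ranged from r = -0.650 (Cd40 and Tnfsf10) to 0.867 (Tnfrsf18 and Cd27).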

How the data were processed

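Libraries were made with a 10x Genomics 3′ kit from sorted CD45+ cells of 2 control skins and 2 skin tumors and sequenced. Per the labels, the authors aligned reads to mm10 and counted UMIs with Cell Ranger 7.1.0 (the matrix headers name 7.0.1), and deposited UMI counts per gene and cell, which were used as they stand. Deposited libraries held 34893543 to 73904272 UMIs in 2258 to 5176 cells. Cells with at least 100 genes, 1000 UMIs, a log10 gene-to-UMI ratio of 0.8 and at most 15% mitochondrial UMIs were kept, after the study's thresholds. The study also removed doublets, which here was an alternative. The depth limits what can be seen: a gene with few UMIs in a sum has a wide counting error.

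Each cell was gated by summed UMIs of fixed marker lists, with minima and limits set from the markers alone. Lists of other lineages were barred more widely than first planned, and cells that met 2 gates or none stayed unassigned. UMIs were summed per library and type and tested by edgeR's quasi-likelihood method (version 4.0.16, with limma 3.58.1 and R 4.3.3) after filterByExpr and TMM scaling, with Benjamini-Hochberg adjustment over all genes of a fit and a threshold of 0.05, called passed in the text. Comparisons of 2 types within libraries had the library as a block. Fold changes are edgeR's log2 estimates with their SE. The test recovered known changes in simulated counts, whose setting is not given here, so this does not measure its power in these sums. Alternatives were DESeq2 1.42.0, no TMM factors, no filter, a replicate block, each library left out, doubled marker minima, no mitochondrial limit, removal of the highest Scrublet scores (scanpy 1.11.5) and cells thinned to 1000 UMIs. Narrowed CD4 T, ILC2 and mature DC gates and a crossed block in neutrophils were added after seeing the data. The members, and the list of 58 related genes with its rule for named genes (binding partners and up to 8 others that passed in the most types), were chosen with earlier results of these data known. Shares of cells with a UMI and the limits for a count of 0 cover counting error only. Gene positions are from GENCODE vM21, in which 30934 of 31053 gene IDs were found, and start-site sequences from RefSeq (GRCm38.p6). Part of the genotype of the tumor line is not reported here.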

Additional observations from a re-analysis of the deposited data

Results flagged for a closer look

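Tnfrsf9 moved in opposite directions in the ILC2 and mature DC gates, with all libraries of a gate on one side: the log2 difference of skin tumor minus control skin was 1.00 in ILC2-gated cells and -2.71 in mature DC. The difference between these 2 effects was not tested. In the narrowed gates the values were 0.62 and -1.57, and neither passed edgeR's test (adjusted p = 0.225 and 0.230).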

How the results depend on the processing

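The 8 pairs of a member and a type that passed between tumor and control skin became 22 without the filter on low counts, 14 with the replicate block and 2 on cells thinned to 1000 UMIs, and ranged from 4 to 21 with 1 library left out. All genes called in these fits, 4407, became 9541 without the filter and 1153 on thinned cells, and 1683 to 11070 with 1 library left out. For Tregs against CD4 T cells, 8 members became 4 on thinned cells and 5 to 6 with 1 library left out. For mature DC against cDC2, 5 became 0 on thinned cells, where of these 5 only Tnfrsf9 was tested, and 3 to 5 with 1 library left out. The difference of the tumor effect between Tregs and CD4 T cells went from 0 to 1 without the filter and with the highest Scrublet scores removed, and was 0 to 1 with 1 library left out. Over all immune cells, 4 became 2 on thinned cells and 1 to 5. Thinned sums hold fewer UMIs, and other causes were not tested. Beyond the counts of called genes above, shares of all genes under these alternatives are not given here.

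Of 291 alternative values of the 25 results on single members that passed, 242 kept their call, 49 lost it and 0 changed sign. Of 898 alternatives of 79 that did not pass, 778 stayed, 58 passed and 62 changed sign. Leaving out TMM factors moved the median log2 of all genes by over 0.1 in 7 types, from -0.306 in mast cells to 0.306 in cDC2, and by 0.140 over all immune cells. Doubled marker minima left 10 types with enough cells. Deviations of same-numbered libraries had correlations of -0.116 to 0.135. With 2 libraries per group, these values cannot show whether the numbers pair the samples. The comparisons within libraries had no block for these numbers. In neutrophils, crossed pairing, chosen after seeing the data, gave 33 called genes against 0.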
